A study of Homo sapiens with 12 samples.

Results

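The 8 genes described here encode 4 ligands of the IL-6 cytokine family (IL6, LIF, IL11 and CLCF1), the receptor chain that the family shares, gp130 (IL6ST), and 3 receptor chains that act with it (IL6R, OSMR and LIFR). They were chosen by gene symbol, and all 8 had a row in both expression tables, among 16101 genes listed in the PMA table, 15991 in the ConA table and 15459 in both. Polyadenylated RNA of HT1080, an established human fibrosarcoma cell line, was sequenced in 12 libraries that form 4 groups of 3. Cells received 40 nM PMA (phorbol myristate acetate, an activator of protein kinase C) or 40 µg/mL ConA (concanavalin A, a lectin that binds cell surface glycans) for 24 h, in low-serum medium depleted of biotin. Each treatment had 3 controls of its own, whose vehicle is not given in the labels. All groups were wild type by their labels and came from 1 cell line.

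IL-6 family cytokines act through receptor complexes that contain gp130. IL-6 and IL-11 each bind an alpha chain, IL6R or IL11RA, and then bring gp130 molecules together. LIF signals through gp130 paired with LIFR, and CLCF1 through the same pair with the alpha chain CNTFR. Oncostatin M (OSM) signals through gp130 paired with OSMR or LIFR. The assembled complexes activate JAK kinases and the transcription factor STAT3, whose target SOCS3 inhibits the pathway in turn. Fibroblasts and related mesenchymal cells are known producers of IL-6, LIF and IL-11.

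The values are normalized counts, scaled to 1 factor per library and apart in each table, so that levels are compared within a table only. The estimated depth was 33641981 to 45595027 reads per library, with a median of 40970198. The 7 mesenchymal markers (VIM, FN1, COL6A1, COL6A2, S100A4, LGALS1 and CD44) were listed in both tables. Their summed level fell between 511691 and 556374 in the PMA table and between 381743 and 619728 in the ConA table. There it was lower in the 3 ConA libraries (381743 to 421409) than in their controls (549334 to 619728). The sum is weighted to the most abundant of them. Of the 7, 1 was called lower and 0 higher with ConA, where 2.88% of all genes tested were called lower, and 0 were called with PMA. Markers of T and NK cells differed between the tables. All 7 of them (CD3D, CD3E, CD2, PTPRC, NKG7, GZMB and CD8A) were listed in the PMA table, with summed levels of 1021 to 1211 in the controls and 1370 to 1960 with PMA. Of these 7, 0 were called with PMA, where 8.65% of all genes tested were. CD3D alone was listed in the ConA table, at 21.6 to 31.0. No B cell marker of 3 was listed in either table, and the monocyte marker CD14 was not listed. Of 6 monocyte markers 4 were listed in the PMA table (summed level 338 to 416) and 3 in the ConA table (373 to 467). Of 3 endothelial markers, PECAM1 and VWF were listed and CDH5 was not. Their summed level was lower in each PMA library (44.3 to 52.2) than in each control (64.4 to 84.9) and overlapped in the ConA experiment (129.6 to 137 with ConA and 107 to 145 in the controls). Of 4 epithelial markers 1 was listed in the PMA table (83.1 to 149.7) and 3 in the ConA table (69.2 to 160.2), with overlap between treated and control libraries in both. Whether these marker reads came from other cell types, and their part in the results, was not tested. In bulk RNA of this kind, fewer cells of a type and less RNA per cell cannot be told apart. The labels do not say whether the libraries of a group came from separate cultures, so p-values measure the spread between these libraries only.

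The sequence directly upstream of a gene's start is where many regulators of its transcription bind. The 250 bases before the start were read from RefSeq (GRCh38.p14) for the 6 members with an entry in the promoter table. These were searched on both strands for AP-1 (TGANTCA), CRE (TGACGTCA), the STAT-binding GAS element (TTCNNNGAA) and the 10-letter NF-kB consensus. AP-1 and NF-kB are factors that act downstream of protein kinase C. Windows of 3 members are shown because each holds a match to 1 of these factors, with the match in capitals. The IL6 window (chr7:22726950-22727199, plus strand) held an NF-kB match from 73 to 64 bases before the start, the IL11 window (chr19:55370464-55370713, minus strand) an AP-1 match from 96 to 90 bases before it, and the IL6ST window (chr5:55994964-55995213, minus strand) an NF-kB match from 53 to 44 bases before it.
IL6: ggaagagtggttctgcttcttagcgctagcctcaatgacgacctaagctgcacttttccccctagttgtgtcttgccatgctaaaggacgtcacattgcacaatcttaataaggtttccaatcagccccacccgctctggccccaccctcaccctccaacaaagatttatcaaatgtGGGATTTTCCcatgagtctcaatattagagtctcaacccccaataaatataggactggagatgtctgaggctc
IL11: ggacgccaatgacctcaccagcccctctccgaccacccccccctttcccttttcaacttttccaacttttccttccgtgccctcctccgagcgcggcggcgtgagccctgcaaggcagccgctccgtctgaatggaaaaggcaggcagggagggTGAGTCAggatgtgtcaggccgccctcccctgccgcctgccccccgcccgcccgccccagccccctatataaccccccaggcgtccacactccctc
IL6ST: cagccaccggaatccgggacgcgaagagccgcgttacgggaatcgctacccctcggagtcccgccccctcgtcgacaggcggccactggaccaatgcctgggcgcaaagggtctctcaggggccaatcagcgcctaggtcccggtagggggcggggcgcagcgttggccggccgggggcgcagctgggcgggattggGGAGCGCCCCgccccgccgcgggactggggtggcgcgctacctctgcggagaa
LIFR has 3 listed starts, and the windows of 2 of them held a GAS match, TTCCTTGAA at 165 to 157 bases and TTCATCGAA at 182 to 174 bases before the start. The windows of IL6R and OSMR held none of the 4 motifs. LIF and CLCF1, both called higher with PMA below, had no entry in the promoter table and were not searched. Over all 35116 promoter windows of this length, the share with a match was 9.96% for NF-kB, 6.57% for AP-1, 6.57% for GAS and 1.65% for CRE. These matches are descriptions of letters and were not tested as binding sites.

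With PMA, 4 of the 8 members rose and 1 fell past the threshold used for calls, which was a change of at least 1 on the log2 scale with an adjusted p of at most 0.0001 (limma, Benjamini-Hochberg over all genes tested). IL6, LIF, CLCF1 and IL6ST rose, and LIFR fell. Of all 15153 genes tested in the PMA table, 8.65% were called, 4.03% higher and 4.61% lower. With ConA, IL6 was the 1 member called, where 8.71% of 15139 genes were called, 5.83% higher and 2.88% lower. The median log2 fold change of the 8 members was 0.95 with PMA and 0.23 with ConA, and over all genes tested it was 0.0029 and -0.0022. The treated libraries were clear of the controls, with no overlap, for 7 members with PMA and for 4 with ConA, which was true of 67.9% and 69.3% of all genes tested. At an adjusted p of at most 0.05 and any fold, 7 members passed with PMA and 4 with ConA, beside 63.3% and 65.3% of all genes. With ConA the members' share was below that of all genes on both of these looser measures.

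**Figure D1:**
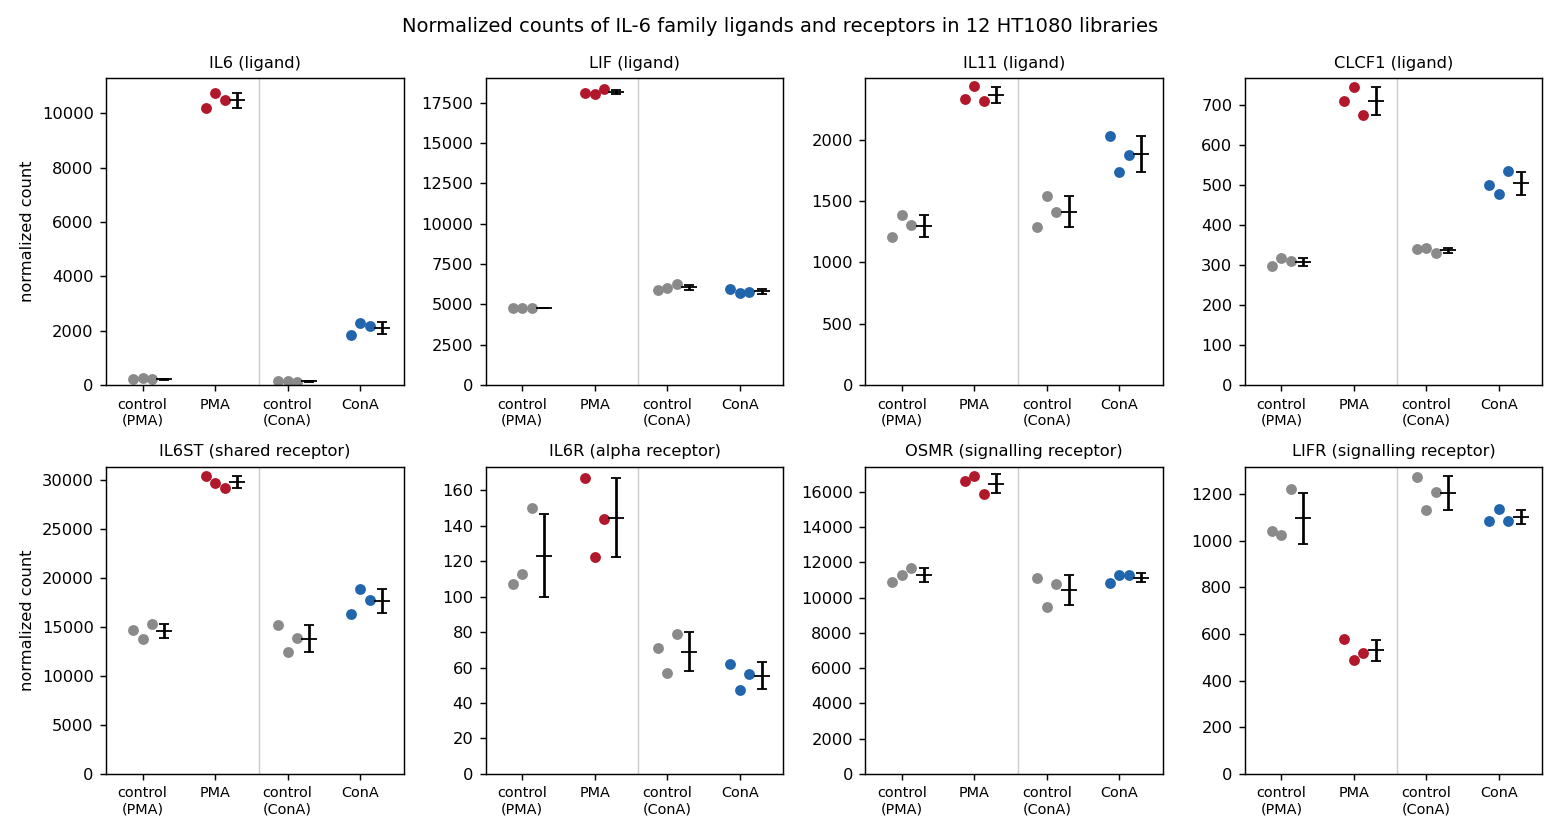
Normalized counts of the 8 members in each of the 12 libraries, with 1 panel per gene and a linear axis from 0, 1 point per library (grey for controls, red for PMA, blue for ConA), and black bars for the mean and SD of each group. IL6 stands between 10185 and 10739 with PMA and between 204.7 and 241 in its controls, while LIF with ConA (5687 to 5969) overlaps its controls (5893 to 6238).

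IL6, the cytokine that names the family, was higher with both treatments. Its normalized counts were 204.7, 241 and 218 in the PMA controls, and 10185, 10739 and 10510 with PMA. The groups lay far apart, and all 3 PMA libraries were close to one another. The mean was 222 ± 18.6 in the controls and 10478 ± 278.5 with PMA (SD, n = 3 each), a 47.3-fold difference and a log2 fold change of 5.56 with an SE of 0.06 (95% interval 5.43 to 5.69, limma adjusted p = 6.35e-14). It ranked 12 of 15153 genes by log2 fold change. With ConA, IL6 stood at 1844, 2288 and 2172, against 144, 137 and 126 in the ConA controls. These groups did not overlap either. The means were 2101 ± 230.0 and 136 ± 8.87 (SD, n = 3 each), 15.5-fold apart, with a log2 fold change of 3.94, an SE of 0.09 and an interval of 3.74 to 4.14 (limma adjusted p = 9.71e-14), at rank 129 of 15139. The summed T and NK markers were also higher in each PMA library than in each control of that table, at 1370 to 1960 against 1021 to 1211, and their part in the IL6 values was not tested.

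LIF, leukemia inhibitory factor, rose past the threshold with PMA and did not pass it with ConA, and the difference between the treatments is tested further on. The PMA controls held 4760, 4751 and 4758 normalized counts, and the PMA libraries 18107, 18047 and 18323. Replicates were close to one another in both groups, and the groups were widely separated. The mean went from 4756 ± 5.06 to 18159 ± 145 (SD, n = 3 each), 3.82-fold, with a log2 fold change of 1.93, an SE of 0.03 and an interval of 1.86 to 2.01 (limma adjusted p = 2.98e-12). ConA libraries had 5969, 5687 and 5756 and their controls 5893, 6031 and 6238. These groups overlapped, with a log2 fold change of -0.06, an interval of -0.17 to 0.05 and a limma adjusted p of 0.304. After median centring the value was -0.15 (limma adjusted p = 0.0196), far under the fold for a call.

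IL11, a cytokine that signals through IL11RA and gp130, was higher in every treated library than in every control of its table but did not reach the fold needed for a call. PMA controls stood at 1206, 1383 and 1305, and PMA libraries at 2332, 2436 and 2312. The log2 fold change was 0.86 with an SE of 0.05 (interval 0.74 to 0.98, limma adjusted p = 1.04e-07), a 1.82-fold difference. Levels with ConA were 2028, 1738 and 1877, against 1289, 1542 and 1406 in the controls. That difference was 1.33-fold, at 0.41 on the log2 scale with an SE of 0.08 (interval 0.25 to 0.58, limma adjusted p = 0.000256).

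CLCF1, a cytokine that acts through CNTFR, gp130 and LIFR, was called higher with PMA. It stood at 297, 317 and 309 in the PMA controls and at 708, 743 and 674 with PMA. Every PMA library was above every control, and the 2.30-fold difference gave a log2 fold change of 1.20 with an SE of 0.07 (interval 1.05 to 1.35, limma adjusted p = 3.47e-08). ConA libraries had 499.7, 478 and 535 and their controls 339, 342 and 329.6. Here the groups were also apart, with a log2 fold change of 0.58, an SE of 0.08 and an interval of 0.40 to 0.75 (limma adjusted p = 2.35e-05), under the fold for a call.

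IL6ST, which encodes gp130, was the receptor member that rose past the threshold with PMA. Controls of the PMA table held 14648, 13821 and 15306 normalized counts, and PMA libraries 30453, 29761 and 29263. The groups did not overlap, and the 2.04-fold difference corresponded to a log2 fold change of 1.03 with an SE of 0.04 (interval 0.94 to 1.13, limma adjusted p = 3.41e-09). The value lies near the fold threshold, and it was 0.84 after quantile normalization and 0.99 without PMA control replicate 2. With ConA, IL6ST had 16342, 18871 and 17798, against 15164, 12451 and 13856 in the controls. The lowest ConA library was above the highest control, with a log2 fold change of 0.36, an SE of 0.07 and an interval of 0.20 to 0.51 (limma adjusted p = 0.000605).

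IL6R, the alpha chain that binds IL-6, was the lowest member in every group on the per-length scale used further on. PMA controls had 107, 113 and 149.9 normalized counts and PMA libraries 167, 123 and 144. The groups overlapped, with a log2 fold change of 0.23, an SE of 0.16 and an interval of -0.11 to 0.58 (limma adjusted p = 0.214). The value rests on single libraries, at 0.14 without PMA control replicate 1, 0.38 without PMA control replicate 3 and 0.12 without PMA replicate 1. ConA libraries stood at 62.1, 47.0 and 56.6 and their controls at 70.9, 57.0 and 79.1. These overlapped as well, with a log2 fold change of -0.31, an SE of 0.19 and an interval of -0.71 to 0.09 (limma adjusted p = 0.155). Some leukocytes are known to express IL6R, and the libraries with all 7 T and NK markers listed were those of the PMA table. Whether any such cells were present, and their part in the IL6R level, was not tested.

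OSMR, the chain that pairs with gp130 to receive oncostatin M, was higher with PMA at less than the fold for a call. The PMA controls held 10885, 11298 and 11684, and the PMA libraries 16636, 16931 and 15864. They did not overlap, and the log2 fold change was 0.55 with an SE of 0.04 (interval 0.45 to 0.64, limma adjusted p = 4.81e-07), or 0.36 after quantile normalization. With ConA it stood at 10834, 11295 and 11282, and in the controls at 11108, 9444 and 10749.9. The groups overlapped, with a log2 fold change of 0.10, an SE of 0.06 and an interval of -0.03 to 0.23 (limma adjusted p = 0.179).

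LIFR, the chain that pairs with gp130 for LIF and CLCF1, was the 1 member called lower. It had 1042, 1024 and 1221 normalized counts in the PMA controls and 579, 489.5 and 518 with PMA. Each PMA library was below each control, and the log2 fold change was -1.05 with an SE of 0.08 (interval -1.23 to -0.87, limma adjusted p = 6.55e-07), a ratio of 0.483. This call was near the fold threshold, at -0.97 without PMA control replicate 3 and -0.99 without PMA replicate 2, and its adjusted p was 0.000371 without a variance trend. ConA libraries had 1085, 1138 and 1084 and their controls 1273, 1129.7 and 1209. The groups overlapped, with a log2 fold change of -0.13, an SE of 0.07 and an interval of -0.27 to 0.01 (limma adjusted p = 0.105).

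**Figure D2:**
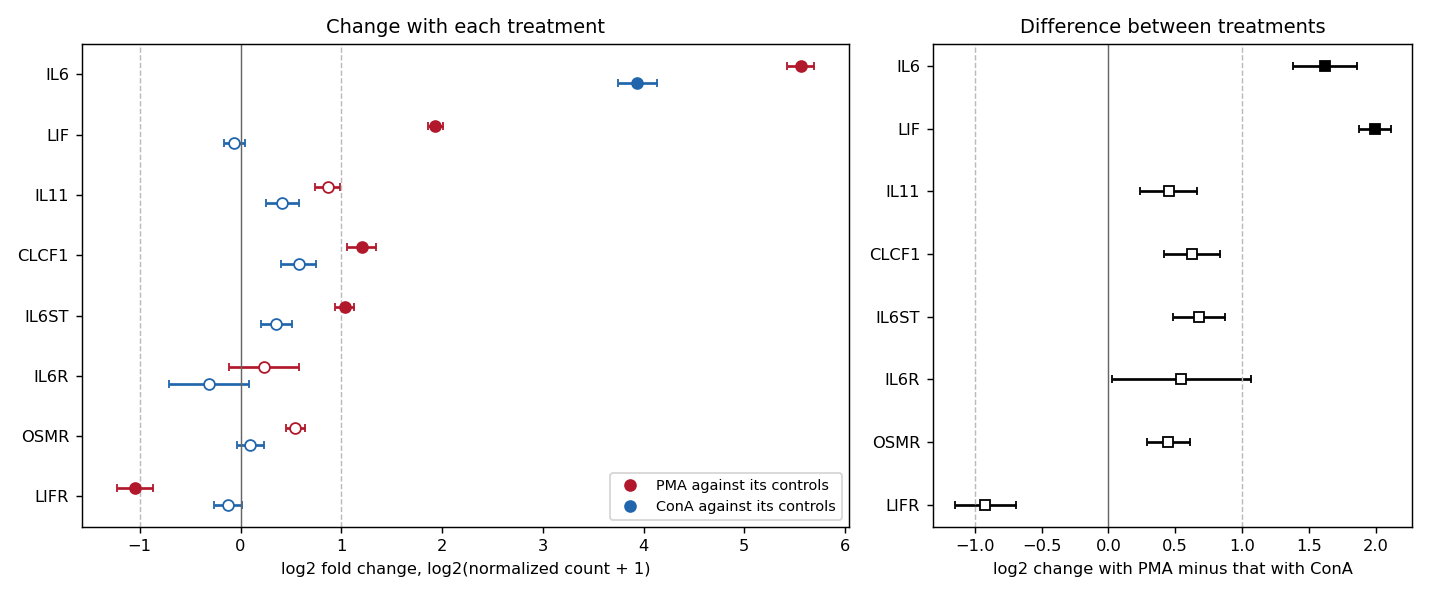
The left panel plots the log2 fold change of each member against the controls of its own table, for PMA (red) and ConA (blue), and the right panel the PMA response less the ConA response, with 95% intervals from limma, filled symbols for calls and dashed lines at the fold threshold of 1 in either direction. IL6 is the member past the line with both treatments, at 5.56 and 3.94, and LIFR with PMA lies at -1.05.

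Whether the response differed between the treatments was tested directly, by subtracting each gene's ConA response from its PMA response in a fit of all 12 libraries. The experiments share no control library. Of 15030 genes tested, 10.6% passed the threshold for this difference (3.67% higher with PMA and 6.89% lower), and of the 8 members 2 did. LIF differed by 1.99 on the log2 scale (SE 0.06, interval 1.88 to 2.11, limma adjusted p = 4.37e-15) and IL6 by 1.62 (SE 0.11, interval 1.38 to 1.86, limma adjusted p = 1.64e-09), both further up with PMA. For LIFR the difference was -0.92 (SE 0.11, interval -1.15 to -0.69, limma adjusted p = 1.14e-06), which is under the fold for a call. The differences of IL6ST (0.68), CLCF1 (0.62), IL11 (0.45) and OSMR (0.45) had limma adjusted p-values of 6.84e-06, 3.78e-05, 0.000861 and 8.12e-05 and were also under that fold. That of IL6R was 0.55 with an interval of 0.03 to 1.06 (limma adjusted p = 0.0633). At an adjusted p of at most 0.05 and any fold, 7 of the members differed, beside 61.1% of all genes tested.

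Ratios of 2 members within a library are free of the library's scaling factor. These 5 ratios were chosen after the values had been seen, and since they are not corrected for transcript length, their change and not their size is of interest. IL6 to LIF went from 0.0466 ± 0.00396 in the PMA controls to 0.577 ± 0.0166 with PMA, and from 0.0225 ± 0.0021 in the ConA controls to 0.363 ± 0.0483 with ConA (SD, n = 3 each). This ratio was 12.4-fold and 16.2-fold higher than in the controls. The receptor chains also moved apart. OSMR to LIFR was 10.4 ± 0.739 in the PMA controls and 31.3 ± 2.99 with PMA, a 3.02-fold rise, and 8.66 ± 0.273 and 10.1 ± 0.262 in the ConA experiment, a 1.17-fold rise. IL6ST to LIFR was 4.24-fold higher with PMA and 1.40-fold higher with ConA, and IL6ST to OSMR 1.40-fold and 1.20-fold. IL6ST to IL6R was 1.74-fold higher with PMA and 1.61-fold higher with ConA. In all 10 comparisons the treated and control ratios did not overlap, and the two-sided exact permutation test gave p = 0.1 (0.1 after adjustment over the 10), the smallest that 3 against 3 libraries allow. The ratios reuse the same genes, so the 10 comparisons are not independent. Among single genes, 67.9% with PMA and 69.3% with ConA did not overlap either, and the share over ratios of other genes was not computed.

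**Figure D3:**
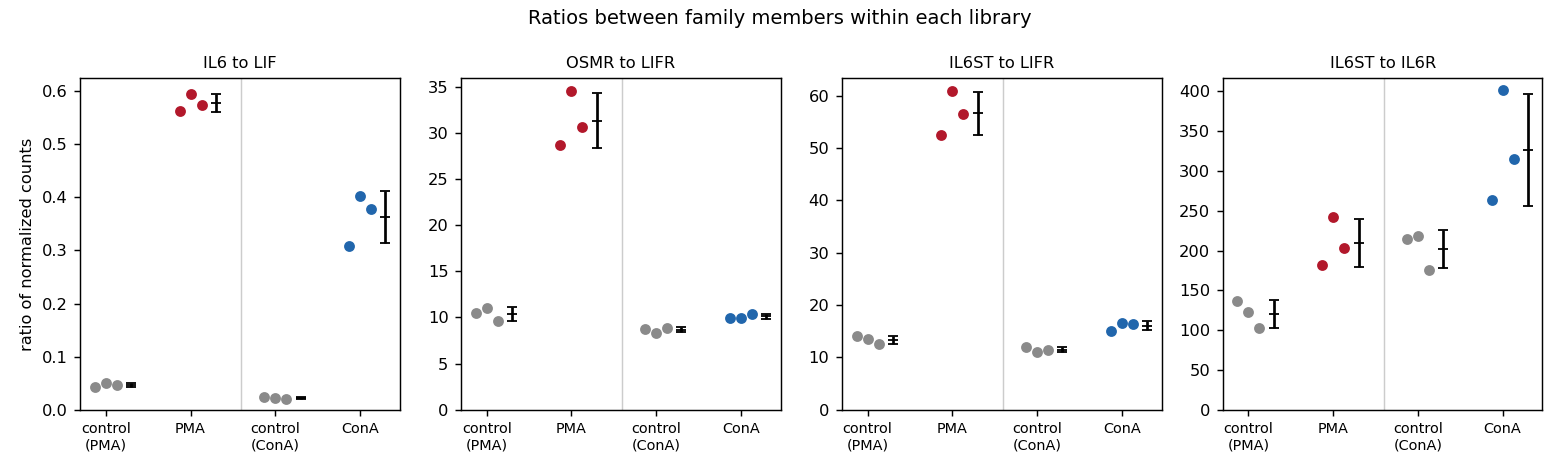
Ratios of normalized counts of 2 members in each of the 12 libraries, for 4 of the ratios with 1 panel each and a linear axis from 0, with a point per library and black bars for the mean and SD of each group. OSMR to LIFR has a mean of 31.3 with PMA and of 10.4 in its controls, and of 10.1 and 8.66 in the ConA experiment.

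Levels of different genes were compared per kilobase of exon, as normalized counts divided by the exon length of each gene (GENCODE 29). In the PMA controls the order was OSMR (1836), IL6ST (1607), LIF (1198), IL11 (548), CLCF1 (156), IL6 (129), LIFR (105) and IL6R (20.4), and the ranges of no 2 neighbours overlapped. IL6 and LIFR were nearest, at 119 to 141 and 98.4 to 117. With PMA, IL6 led at 6113 per kilobase, followed by LIF (4575), IL6ST (3285), OSMR (2681), IL11 (995), CLCF1 (359), LIFR (50.8) and IL6R (24.0), again with no neighbours overlapping. So 2 ligands stood above both gp130 and OSMR with PMA, where the 2 receptor chains had stood above all ligands in the controls.

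In the ConA controls, OSMR (1697), LIF (1525) and IL6ST (1523) could not be ordered, since their libraries overlapped, at 1536 to 1807, 1485 to 1572 and 1372 to 1670. IL11 (596), CLCF1 (171), LIFR (116), IL6 (79.2) and IL6R (11.5) followed without overlap. With ConA, IL6ST (1946) and OSMR (1812) overlapped, then came LIF (1462), IL6 (1226), IL11 (793), CLCF1 (255), LIFR (106) and IL6R (9.17). IL6 thus went from below LIFR to above IL11. When the longest transcript was used for length, IL6ST (1951) and OSMR (2011) changed places with ConA, and so did LIF (1525) and IL6ST (1526) in the ConA controls.

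**Figure D4:**
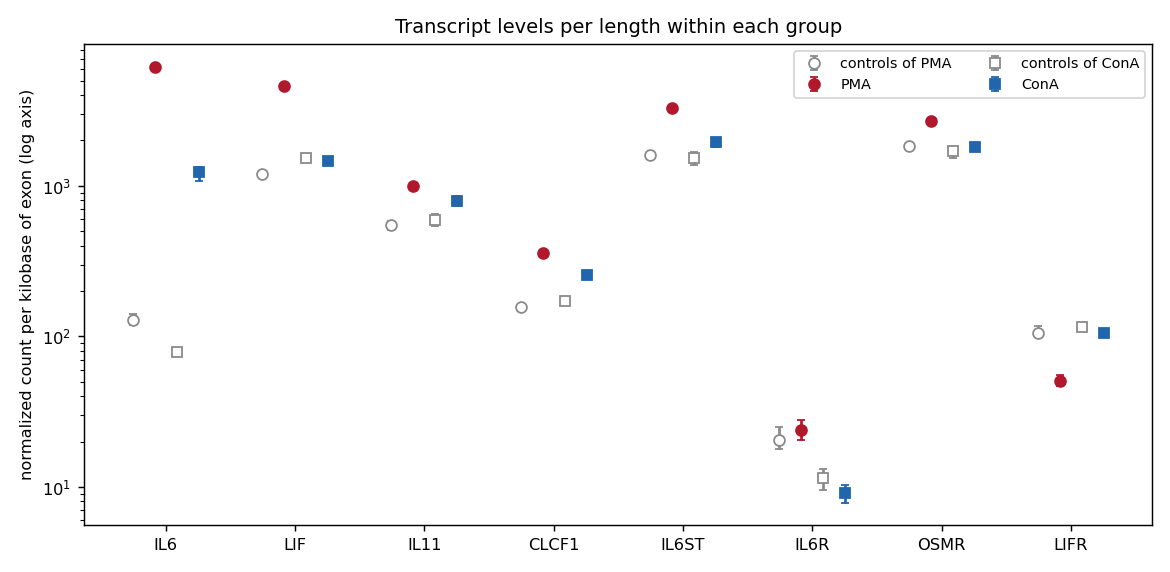
Normalized counts per kilobase of exon (log axis) of the 8 members in the 4 groups, with open symbols for controls, filled symbols for treated groups, and bars from the lowest to the highest of 3 libraries around the mean. Levels may be compared between genes within a table, and IL6 moves from 129 to 6113 per kilobase with PMA and from 79.2 to 1226 with ConA.

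Some members share sequence with other genes, and whether reads were counted by strand is not stated. IL6 shares 46 exon bases on the opposite strand with STEAP1B, which stood at 3.61 to 24.4 in the PMA table and was not listed in the ConA table, and the antisense gene IL6-AS1 stood at 2.68 to 16.3 and 2.00 to 11.5. OSMR shares 229 exon bases with RICTOR (1264 to 1771 in the PMA table and 737 to 2558 in the ConA table), and LIFR shares 629 with LIFR-AS1 (11.6 to 39.1 and 24.9 to 55.9). Antisense genes not listed under their symbols in either table share 428 exon bases with IL6 (AC073072.1) and 797 with IL6ST (AC008914.1). Whether AC073072.1 and IL6-AS1 are the same gene under different symbols was not checked. LIF shares 175 with AC004264.1 and 92 with LIF-AS1, which were not listed either. Reads from these shared bases cannot be assigned to 1 gene without strand. CLCF1 shares 61 exon bases on the same strand with AP003419.1, also not listed, and strand would not separate those reads.

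The wider pathway was described by 58 further genes in 7 lists, of which 47 were tested with PMA and 45 with ConA. With PMA, 12 rose and 1 fell (27.7% called, against 8.65% of all genes), with a median log2 fold change of 0.28. With ConA, 8 rose and 1 fell (20.0% called, against 8.71% of all genes), with a median of 0.31. The medians over all genes were 0.0029 and -0.0022.

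Among the other ligands, OSM and EBI3 were listed, and CNTF, CTF1, IL27 and IL31 were not listed in either table. OSM stood at 8.30, 3.58 and 16.2 in the PMA controls and at 6.97, 23.8 and 33.5 with PMA (log2 fold change 1.07, SE 0.60, limma adjusted p = 0.14), and was not listed in the ConA table. Its log2 fold change was 0.58 without PMA control replicate 2, 0.64 without PMA replicate 3 and 1.70 without PMA replicate 1 (limma adjusted p = 0.419, 0.419 and 0.0184), so single libraries decide it. Leukocytes are known producers of OSM, and the T and NK markers given above were listed in the same table; their part in the OSM values was not tested. EBI3, a subunit of IL-27 and IL-35, rose with ConA from 252.5 ± 7.50 to 852 ± 34.9 (log2 fold change 1.75, limma adjusted p = 1.56e-10), and its log2 fold change with PMA was 0.71, from 209.7 ± 21.9 to 344 ± 29.5 (limma adjusted p = 9.14e-05, under the fold for a call). The difference between the treatments was past the threshold for EBI3, at -1.04 (limma adjusted p = 1.8e-06).

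Of the other receptor chains, IL27RA, IL31RA and IL11RA were tested and CNTFR was not listed in either table. IL27RA, the alpha chain for IL-27, rose with both treatments, from 814 ± 14.9 to 2539 ± 38.2 with PMA (log2 fold change 1.64, limma adjusted p = 7.45e-11) and from 1274 ± 82.3 to 3255 ± 104.6 with ConA (1.35, limma adjusted p = 2.07e-10). IL11RA, the alpha chain for IL-11, stood at 112, 104.6 and 137 in the PMA controls and at 52.2, 62.7 and 39.5 with PMA. The groups did not overlap, and the log2 fold change of -1.19 had a limma adjusted p of 0.000183, short of a call (SE 0.19). With ConA the IL11RA log2 fold change was -0.63 (limma adjusted p = 0.000399). The ligand IL11 and its alpha chain thus had values in opposite directions in both experiments.

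Of the 2 shedding proteases, 6 signalling genes and 7 inhibitors counted here, limma called 0 with either treatment. Over all genes tested, 8.65% were called with PMA and 8.71% with ConA. At an unadjusted limma p under 0.05, 13 of these 15 genes passed with PMA and 12 with ConA, where 66.7% and 68.2% of all genes tested passed. STAT3, the main factor below gp130, had log2 fold changes of -0.20 with PMA (limma adjusted p = 0.00122) and 0.40 with ConA (limma adjusted p = 6.21e-06). Those of ADAM17, a protease that releases the ectodomain of IL6R, were -0.13 with PMA (limma adjusted p = 0.022) and 0.22 with ConA (limma adjusted p = 0.0031). SOCS3, the feedback inhibitor, was lower in each treated library than in each control, at 516 to 628 with PMA against 795 to 918, and at 663 to 780 with ConA against 1063 to 1068. Its log2 fold changes of -0.54 (limma adjusted p = 0.000142) and -0.60 (limma adjusted p = 6.9e-06) were under the fold for a call, so the values of SOCS3 and IL6 lay in opposite directions with both treatments.

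Of 27 genes known as STAT3 targets, a list without SOCS3 (counted above with the inhibitors), 21 were tested with PMA and 20 with ConA. With PMA 8 rose and 1 fell (42.9% called, against 8.65% of all genes, median log2 fold change 0.81). With ConA 5 rose and 1 fell (30.0% called, against 8.71% of all genes, median 0.32). The other 12 genes tested with PMA and 14 with ConA were not called. At an adjusted p of at most 0.05 and any fold, 12 were higher and 7 lower with PMA. With ConA 13 were higher and 5 lower on that measure, which 63.3% and 65.3% of all genes passed. The acute-phase genes SAA1 and SAA2 rose with both, by 2.45 and 3.04 with PMA (limma adjusted p = 1.03e-05 and 1.06e-07) and by 6.57 and 6.35 with ConA (limma adjusted p = 2.28e-15 and 4.37e-14) on the log2 scale. These paralogs are nearly identical, so the split of reads between them is uncertain. LRG1, another acute-phase gene, rose by 2.61 with PMA (limma adjusted p = 1.82e-06) and by 3.604 with ConA (limma adjusted p = 8.39e-10). SAA1 was not called with PMA when PMA control replicate 1 (2.27, limma adjusted p = 0.000106), PMA replicate 2 (2.43, 0.000157) or PMA replicate 3 (2.44, 0.000112) was left out. Other acute-phase genes of this list are named here after their values were seen. SERPINA3, at a low level (mean 16.9 in the PMA controls), was not called. Its value was -0.12 with PMA (limma adjusted p = 0.732) and -0.36 with ConA (limma adjusted p = 0.295). A2M was called higher with PMA (2.57, limma adjusted p = 5.89e-06) and not tested with ConA. FGA, FGB, LBP, HP and CRP were not listed in either table, and FGG was not tested. The single genes that fell are also named after their values were seen. CEBPD, a transcription factor, fell with PMA (-1.11, limma adjusted p = 6.58e-06, and -0.99 without PMA control replicate 3). With ConA its value was 0.66 (limma adjusted p = 4.38e-06), under the fold for a call. The difference between the treatments was past the threshold for CEBPD (-1.77, limma adjusted p = 9.21e-09). VEGFA, an angiogenic growth factor, fell with ConA (-1.22, limma adjusted p = 2.48e-09). Its value with PMA was -0.87 (limma adjusted p = 8.96e-09), under the fold for a call. The VEGFA difference between the treatments was 0.35 (limma adjusted p = 0.002), also under that fold.

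The last list held 6 genes that act on the stability or transcription of IL6 mRNA and related transcripts. With PMA 3 of them rose (50% called, against 8.65% of all genes, median log2 fold change 0.78). These were ZFP36 (1.70, limma adjusted p = 2.46e-09), ZC3H12A (1.497, limma adjusted p = 5.77e-10) and NFKBIZ (1.29, limma adjusted p = 2.04e-08). ZFP36 and ZC3H12A encode proteins that promote the decay of cytokine mRNAs, and NFKBIZ a nuclear cofactor of NF-kB. With ConA their values were 0.72, 0.72 and 0.41, none of them a call. Of the 6 genes, 1 was called with ConA (16.7%, against 8.71% of all genes, median log2 fold change 0.56). ARID5A, whose protein stabilizes IL6 mRNA and which is named here after its values were seen, was the 1 gene of this list called with ConA (1.02, limma adjusted p = 2.79e-07), and it was under the fold for a call, at 0.96 and 0.97, without ConA replicate 3 and without ConA control replicate 4. With PMA its log2 fold change was 0.18 (limma adjusted p = 0.0949).

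**Figure D5:**
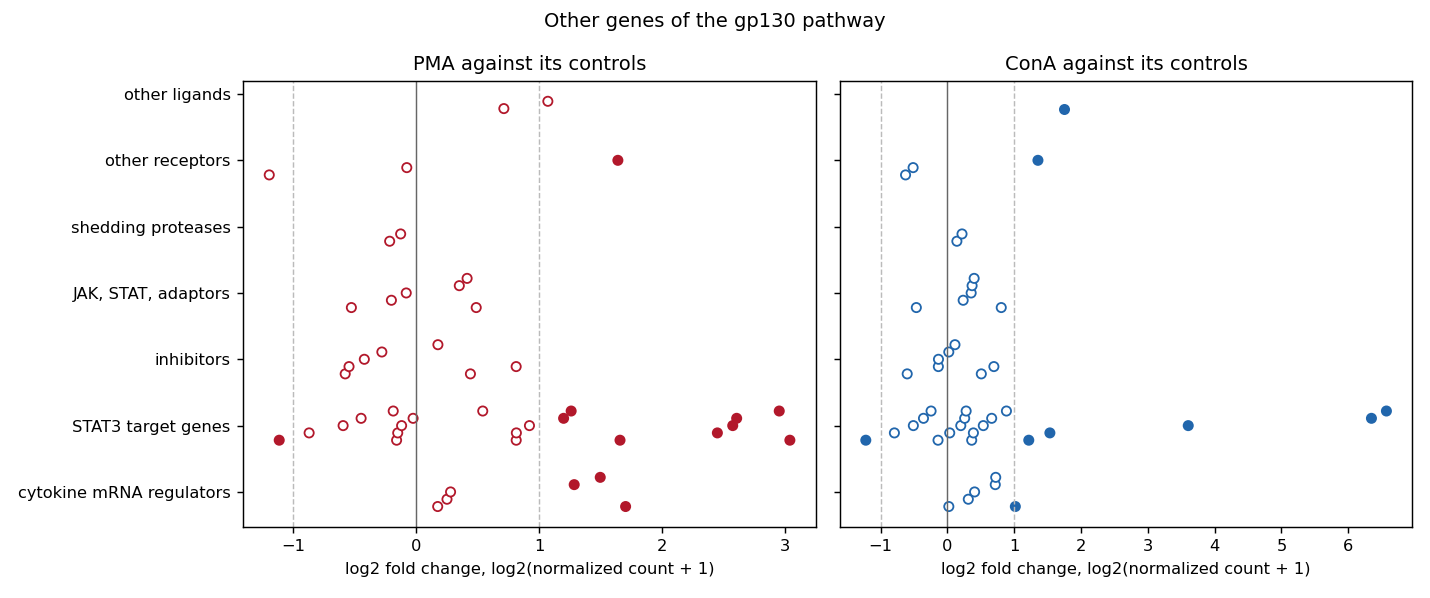
Log2 fold changes with PMA (left) and with ConA (right) of the pathway genes tested, in rows by list, with a point per gene, filled where called, and dashed lines at the fold threshold of 1 in either direction. EBI3, among the other ligands, lies at 1.75 with ConA and 0.71 with PMA, and SOCS3, among the inhibitors, lies at -0.54 with PMA and -0.60 with ConA.

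For each member, the genes with the most similar profile were found by the root mean square difference from it over the 12 libraries, in log2 values less the mean of the controls of the same table, among 14661 genes. The genes nearest to IL6 were CXCL8 (0.16), which encodes the chemokine IL-8, ZP4 (0.36) and CCL20 (0.45), another chemokine, with log2 fold changes of 5.80, 5.22 and 4.92 with PMA and 4.08, 4.37 and 3.48 with ConA. Nearest to LIF were PPP1R15A (0.0996), SBSN (0.109) and LINC-PINT (0.12). The nearest gene was IL4R for IL11 (0.0725), NUMB for CLCF1 (0.0655), PLA2G4A for IL6ST (0.0572), FLNA for IL6R (0.126), LAMC1 for OSMR (0.0422) and ADAM22 for LIFR (0.0588). On the same measure, 4241 of the 14661 genes lay within 0.2 of no change, so a member with small changes may have many near genes. The nearest genes are descriptions over libraries that share their controls.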

How the data were processed

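Polyadenylated RNA was sequenced in 12 HT1080 libraries, held in a PMA and a ConA table of 3 treated and 3 control libraries each. The deposited signal values, 1 per gene symbol, are counts that the authors had normalized with 1 factor per library. The submitters' processing notes name Partek, STAR, Bowtie2, DESeq2 and the builds hg19 and mm10, without roles. Of values from 5 to 60, 80.2% to 82.5% came within 0.02 of a whole number after rescaling, so reads were not recovered and no count test was run. Depth was 33641981 to 45595027 estimated reads per library, and 3 libraries per group limit the precision.

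Within each table limma 3.58.1 (R 4.3.3, variance trend) was run on log2(value + 1), for genes with a mean of at least 10, with Benjamini-Hochberg adjustment. Fold changes on this scale are understated for low genes. Calls needed an adjusted p of 0.0001 or less and a log2 fold change of 1 or more in size. Differences between treatments used 4 group means over 12 libraries. The members and gene lists were chosen with earlier results of these data known. All members were named, and of each pathway list up to 3 called genes with the largest change under either treatment, with SOCS3, STAT3, ADAM17, IL11RA, OSM and CNTFR. Of the pathway lists, 2 genes are not reported here and enter no count of the lists. The likeness rule took the 3 nearest genes. Same-numbered PMA and control libraries correlated at -0.0636, 0.0964 and 0.0964 in their deviations from the group means over 15153 genes. Those of different number lay between -0.176 and 0.106. With 3 libraries per group, these values neither show a pairing by number nor exclude one. Alternatives were the pseudocount, the filter, scaling, the variance trend, the p threshold, a joint fit, the replicate block and leaving out each library. The limma step was tested on simulated data.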

Additional observations from a re-analysis of the deposited data

Results flagged for a closer look

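The responses of 2 members differed between the treatments past the threshold in limma's test of the difference itself. For LIF, the PMA response less the ConA response was 1.99 on the log2 scale (limma adjusted p = 4.37e-15), and all 3 PMA libraries were above their controls, while the ConA libraries overlapped theirs. For IL6 it was 1.62 (limma adjusted p = 1.64e-09), and all 3 treated libraries were above all controls in both experiments. The treatments were run with separate controls and normalized apart, so experiment and treatment differ together, and the part of the T and NK markers listed in the PMA table was not tested.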

How the results depend on the processing

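Of 408 alternative values of the members' fold changes, 403 kept their direction and side of the threshold, 5 fell short of the call and 0 reversed. IL6ST with PMA was 0.84 after quantile normalization and 0.99 without PMA control replicate 2. LIFR with PMA had an adjusted p of 0.000371 without a variance trend and was -0.97 and -0.99 without PMA control replicate 3 and PMA replicate 2. IL6 stayed at 5.50 to 5.62 with PMA and at 3.85 to 4.03 with ConA, LIF at 1.73 to 1.94 with PMA, and their differences between treatments at 1.53 to 1.72 and 1.81 to 2.07. Without a variance trend, 8 pathway genes were called with PMA in place of 13, and 867 of all genes with PMA in place of 1310 and 662 with ConA in place of 1318. The cause was not tested.

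Leaving out each library in turn gave 4 to 5 members called with PMA, 1 with ConA and 2 for the difference. It gave 10 to 12 pathway genes with PMA and 8 to 9 with ConA, and 1107 to 1252 of all genes with PMA, 1123 to 1415 with ConA and 1427 to 1594 for the difference. SAA1, SAA2 and CEBPD with PMA and VEGFA and ARID5A with ConA were not called without a variance trend. CEBPD with PMA was -0.97 after quantile normalization. IL11RA with PMA was called in a joint fit of all libraries (limma adjusted p = 5.2e-06) and with the looser p threshold of 0.05, and VEGFA with PMA after quantile normalization (-1.07). ARID5A with ConA was 0.99 with a pseudocount of 10, 0.92 after quantile normalization and 0.93 after median centring. At an adjusted p of at most 0.05, with the fold kept, 1933 genes were called with PMA, 1750 with ConA and 2321 for the difference. After quantile normalization the difference between treatments was 0.45 for IL6ST and 0.25 for OSMR. Scaling moved the median of all genes by less than 0.1.

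With the replicate block in the PMA table, 5 members were called as without it, 13 pathway genes, and 1264 of all genes in place of 1310. The ConA libraries and their controls share no number, so no paired analysis was possible there. IL6R rested on 116 to 166 estimated reads per library in the PMA table and 45 to 79 in the ConA table.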
